A study of Homo sapiens with 2 samples.

Results

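The cells described here are 161 cells of CAL51, an established line of triple-negative breast cancer, chosen by their measured share of RNA from COL3A1, COL2A1 and NTS. Each CAL51 barcode with at least 5000 unique molecular identifiers (UMIs, counts of captured molecules) was scored by its summed UMIs of these 3 genes over its total UMIs, after 31 barcodes whose sequence also occurred in the other library had been left out. The top 15% by score, 161 of 1071 cells, are called score-high cells below and were compared with the other 910 CAL51 cells. A further 275 CAL51 barcodes held fewer than 5000 UMIs and were not used. The whole series holds 1683 barcodes from 2 triple-negative breast cancer lines, CAL51 (1377 barcodes) and MDAMB468 (306 barcodes), and the labels name no treatment for either. Each line is 1 Drop-seq library, in which single cells and barcoded beads are joined in oil droplets and the 3′ ends of polyadenylated RNA are read. Cells of 1 library are not replicates, so no test between conditions was possible, no p-value was computed, and each 95% interval below covers counting error only.

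COL2A1 and COL3A1 encode the single chain of type II collagen, the main fibrillar collagen of cartilage, and of type III collagen, found in skin, vessels and other elastic tissue. Their chains are hydroxylated and folded in the endoplasmic reticulum, trimmed after secretion and assembled into fibrils. NTS encodes the precursor of neurotensin, a secreted peptide known from gut endocrine cells and neurons. Cell lines are mixtures of cells in different states, and single-cell counts can show which genes are high in the same cells.

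The promoters of NTS, the gene that gave most of the score, and of ACTC1, a muscle actin among the genes with the highest fold outside the score, are shown because neither was detected in most CAL51 cells. Both are from RefSeq (GRCh38.p14) and run 5′ to 3′ on the strand of the gene over the 250 bases before its start, with the motifs found in capitals. The NTS promoter lies at chr12:85874045-85874294 on the plus strand, and the capitals mark overlapping copies of TATATA, the first at -33 from the start. The ACTC1 promoter lies at chr15:34795550-34795799 on the minus strand. Of 3 starts in the table, the first entry that held a CArG box was used, so its presence was set by that choice. The capitals mark this CArG box at -109 and TATAAA at -31.
NTS: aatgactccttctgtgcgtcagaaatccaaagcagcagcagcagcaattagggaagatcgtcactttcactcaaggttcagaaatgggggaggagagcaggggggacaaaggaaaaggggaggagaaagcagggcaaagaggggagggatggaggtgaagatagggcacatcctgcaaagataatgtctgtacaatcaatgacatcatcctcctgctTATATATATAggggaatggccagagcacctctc
ACTC1: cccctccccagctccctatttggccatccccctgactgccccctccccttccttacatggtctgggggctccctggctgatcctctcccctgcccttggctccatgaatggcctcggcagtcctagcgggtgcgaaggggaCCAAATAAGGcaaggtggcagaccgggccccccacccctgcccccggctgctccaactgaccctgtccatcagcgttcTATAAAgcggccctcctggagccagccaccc
On both strands, a CArG box, the sequence bound by serum response factor at muscle and cytoskeletal genes, was present in 1.16% of 35116 promoters of this length, TATAAA in 10.7% and TATATA in 3.73%. These matches describe the letters only, and no binding was measured.

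The cells were selected on the counts of the score genes, so the values of its genes are a description. NTS gave 61.7% of the score UMIs of the score-high cells (1021 UMIs), COL2A1 34.8% (577 UMIs) and COL3A1 3.50% (58 UMIs). COL3A1 was seen in 23 of the 161 cells and COL2A1 and NTS in 128 each. A name by COL3A1 and COL2A1 would go against these counts, which NTS and COL2A1 led. In the other 910 cells the same genes had 7 UMIs (COL3A1, 7 cells), 265 UMIs (COL2A1, 151 cells) and 225 UMIs (NTS, 142 cells).

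Scores of the score-high cells ran from 302 to 3810 CPM (UMIs scaled to a common total per cell or group), with a median of 633 CPM. The lowest held 2 score UMIs among 6617, and the highest of the other cells, at 299 CPM, held 4 among 13375. Within 10% of the cut lay 12 score-high cells and 13 others. The cut makes a range of scores, and it was not tested whether these cells are a separate type. Score UMIs numbered 2 in 5 of the cells, 3 in 15, 4 in 21 and at least 5 in 120. Of the other cells, 659 (72.4%) had no score UMI and 251 had at least 1.

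**Figure D1:**
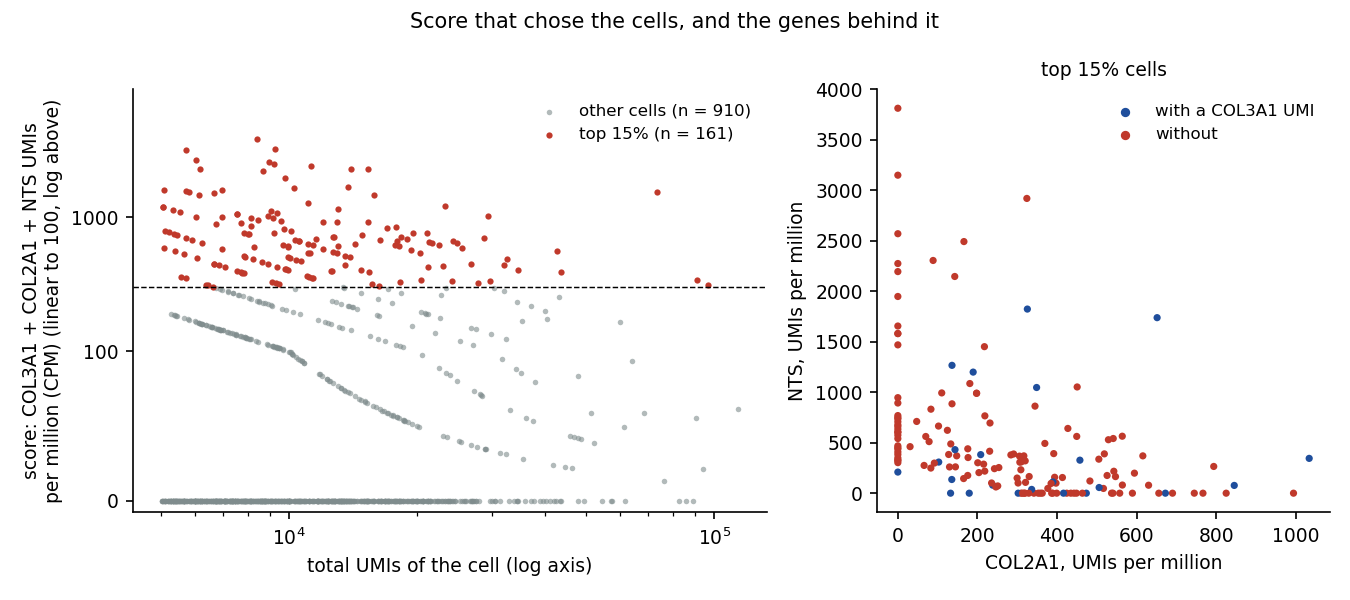
Left, the score of each CAL51 cell (summed CPM of COL3A1, COL2A1 and NTS, linear to 100 and log above) against its total UMIs (log axis), with the cut as a dashed line. The score-high cells (red) span the whole range of depth, and the grey lines of points are cells with 1, 2, 3 or more score UMIs. Right, COL2A1 against NTS in CPM in the 161 score-high cells, with those holding a COL3A1 UMI in blue.

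NTS led the score, with more UMIs than either other gene, in 79 score-high cells, COL2A1 in 63 and COL3A1 in 3, and 16 had a tie. COL2A1 and NTS without COL3A1 occurred in 79 cells, NTS alone in 32, COL2A1 alone in 27 and all 3 genes in 16. Over all 1071 cells, which share 1 library and differ in depth, NTS was seen in 49.8% of cells with COL2A1 and in 16.5% of cells without. Spearman's rho between the shares of each cell's UMIs on COL2A1 and on NTS was 0.35 over these cells. That between COL3A1 and COL2A1 was 0.26.

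The score-high cells were like the other cells in depth. Their median was 10065 UMIs (range 5052 to 96793), and that of the other cells was 10492 (range 5022 to 113702). Mitochondrial genes took a median of 4.32% of UMIs in the score-high cells and 4.15% in the others, and ribosomal protein genes 11.2% and 13.1%. After thinning to 5000 UMIs, medians of 2416 and 2362 genes were detected. A doublet caller marked 2 of the 1071 cells, none of them score-high, and undetected doublets may remain. The 14 genes listed as carried over from MDAMB468 cells had 1 UMI in all score-high cells (0.448 CPM) and 8 in the others (0.618 CPM), with 13 of the 14 at 0 in the score-high cells.

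Outside the score, UMIs were summed over each group and given as CPM, the score genes left out. Genes with at least 25 CPM over both groups, 5725 in number, were compared as log2 of CPM + 5, a scale that understates differences of low genes. Of these, 120 genes (2.1%) were at least 1.5-fold higher and 133 genes (2.32%) at least 1.5-fold lower in the score-high cells on this scale, while the median difference of all compared genes was 0.02. This level is over the pooled UMIs, of which 85.3% came from the other cells, so genes high only in the score-high cells could miss it while genes low there passed. With at least 25 CPM as the mean of both groups' CPM, a setting added after the data were seen, 148 of 5770 genes (2.56%) were higher and 111 (1.92%) lower. The highest included ENC1, SPARC, PCOLCE, GPC3 and MYL9, and the lowest S100A10, CA2, LMNA and EPCAM.

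ENC1 (ENSG00000171617; GRCh38, chromosome 5, 74627406 to 74641424), an actin-binding kelch protein, differed most of the genes named by rule and reported here. It had 220 UMIs in the score-high cells (98.6 CPM, interval 86.0 to 112.5) and 196 in the others (15.1 CPM, interval 13.1 to 17.4), a ratio of 6.51 (interval 5.35 to 7.94). It was seen in 87 of 161 score-high cells, with a median of 1 UMI and a highest count of 12, and in 120 of 910 others, with a median of 0. Thinned to 5000 UMIs, it was seen in 30.4% of score-high cells (interval 23.4 to 38.2) and 5.38% of others (interval 4.01 to 7.06). The groups overlapped cell by cell, since most other cells and many of the score-high ones lacked a UMI.

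Of the 12 highest genes, 3 encode secreted matrix proteins. SPARC (chromosome 5, 151661096 to 151687165), a collagen-binding glycoprotein of the matrix, had 111 CPM against 31.0 CPM, a ratio of 3.58 (interval 3.04 to 4.20). PCOLCE, which enhances the cleavage of procollagens, had 81.6 CPM against 24.2 CPM (3.36-fold, interval 2.79 to 4.05). MFAP2, a protein of elastic microfibrils, had 202 CPM against 79.2 CPM (2.55-fold). Its fellow microfibril gene MFAP5 went the other way, with 89.2 CPM against 225 CPM, 2.53-fold lower (interval 2.19 to 2.93).

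GPC3 (chromosome X, 133535745 to 133985895), a heparan sulfate proteoglycan of the cell surface, was the most abundant of the 12 highest genes. It had 2875 UMIs in the score-high cells (1288 CPM) and 7150 in the others (552 CPM), a ratio of 2.33 (interval 2.23 to 2.44). It was seen in 160 of 161 score-high cells, with a median of 13 UMIs and a highest count of 103, and in 799 of 910 others, with a median of 5. MDAMB468 cells had none (0 CPM). The gene was thus detected in most cells of both groups, at different levels.

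Among actin and myosin genes, FSCN1, which bundles actin filaments, had 203 CPM against 89.1 CPM (2.28-fold). MYL9 (chromosome 20, 36541484 to 36551447), a regulatory light chain of myosin, had 490 CPM against 222 CPM (2.21-fold, interval 2.06 to 2.37) and was seen in 140 of 161 and 721 of 910 cells. TAGLN, an actin-binding protein of smooth muscle, had 666 CPM against 322 CPM (2.07-fold, interval 1.95 to 2.19). Further such genes were picked out after their values were seen. Of these, MYH10, a heavy chain of nonmuscle myosin, had 1003 CPM against 476 CPM (2.11-fold). TPM1, a tropomyosin, had 2608 CPM against 1683 CPM (1.55-fold), and DSTN, which severs actin filaments, had 1248 CPM against 739 CPM (1.69-fold). Not every gene of this kind differed, since the actin-binding CALD1 had 661 CPM against 633 CPM.

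ACTC1, whose promoter is printed above, and TUBA1A, an alpha tubulin, were also picked out after their values were seen. ACTC1 had 277 UMIs in 61 score-high cells (124 CPM) and 267 in 127 others (20.6 CPM), a ratio of 6.02 (interval 5.07 to 7.15), but 1 cell held 18.8% of the first sum. TUBA1A had 103 CPM against 26.2 CPM (3.92-fold), with 1 cell holding 15.3%. ACTA2, the smooth muscle actin, was too low to be compared by rule and had 76 UMIs in 12 score-high cells (34.1 CPM) and 51 in 30 others (3.94 CPM). Its UMIs thus sat in few cells, and those of ACTC1 in more.

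The other genes of the 12 highest that are reported have varied roles. BEX1 and TCEAL7, neighbours of a small gene family on the X chromosome, had 136 CPM against 41.4 CPM and 102 CPM against 42.7 CPM. ADM, which encodes the vasodilator peptide adrenomedullin, had 171 CPM against 54.7 CPM (3.12-fold). SH3BP5 had 80.2 CPM against 34.0 CPM. ADM is often counted among genes induced by low oxygen. Of 10 compared hypoxia and glycolysis genes ADM was the single one past 1.5-fold, and their median was -0.11. The part of low oxygen in these values was not tested.

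On the lower side, S100A10 (chromosome 1, 151982915 to 151994390), the partner of annexin A2 at the membrane, led the 12 lowest genes. It had 204 UMIs in the score-high cells (91.4 CPM) and 4233 in the others (327 CPM), 3.58-fold lower (interval 3.11 to 4.13). It was seen in 70 of 161 score-high cells, with a median of 0, and in 701 of 910 others, with a median of 2. LMNA, which encodes lamins A and C of the nuclear envelope, had 131 CPM against 327 CPM (2.50-fold lower), and ANXA4, an annexin, 123 CPM against 312 CPM (2.53-fold lower).

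CA2, a carbonic anhydrase, had 126 CPM against 394 CPM, 3.13-fold lower (interval 2.78 to 3.54). CTH, which makes cysteine from cystathionine, had 24.6 CPM against 84.8 CPM (3.44-fold lower), and PLAAT3, a phospholipase and acyltransferase, 150 CPM against 430 CPM (2.87-fold lower). C2orf88, an anchor for protein kinase A, had 41.2 CPM against 140 CPM. DAB1, the adaptor of the reelin pathway, had 44.4 CPM against 121 CPM. TRPC6, a cation channel, had 28.7 CPM against 73.0 CPM, and PPFIBP1, a liprin, 85.1 CPM against 188 CPM. EPCAM (chromosome 2, 47345158 to 47387601), the epithelial adhesion molecule, completed the 12 with 129 CPM against 304 CPM, 2.36-fold lower (interval 2.09 to 2.66).

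**Figure D2:**
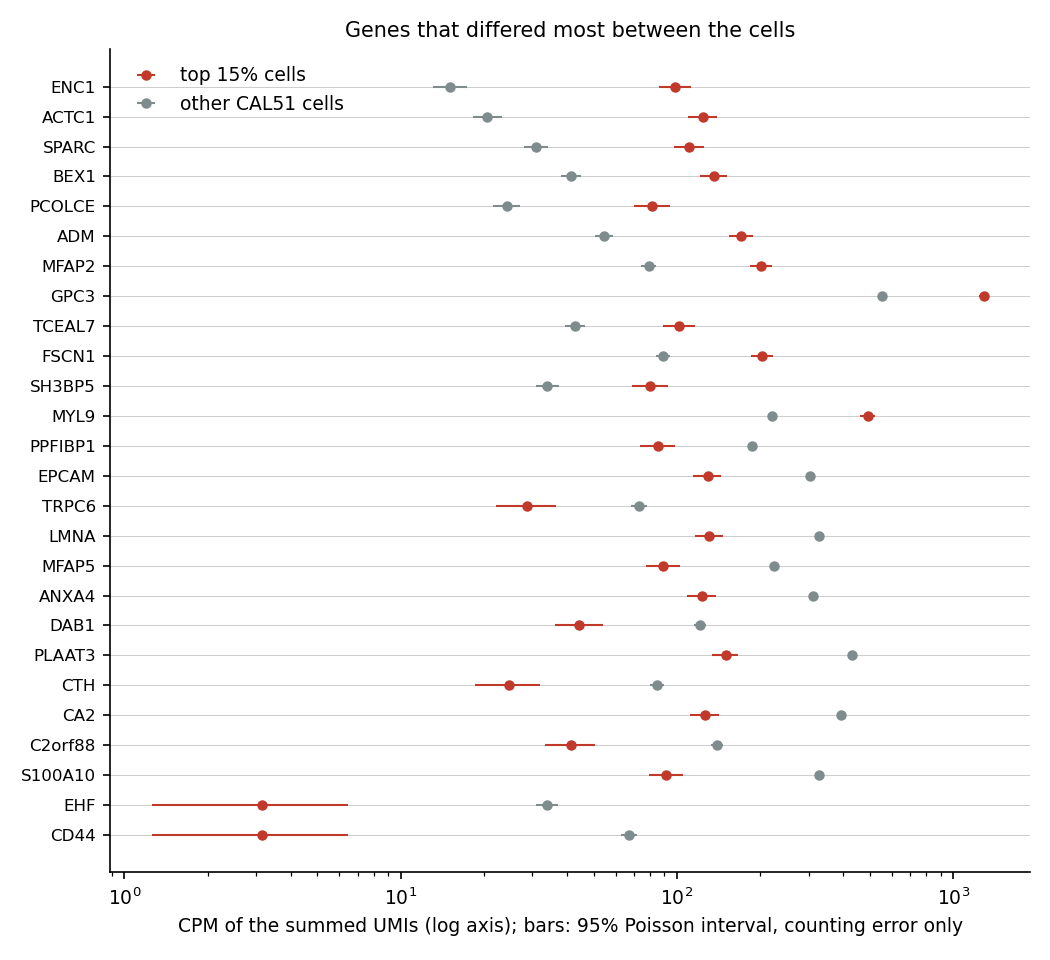
CPM (log axis) of the reported genes among the 12 highest and 12 lowest, and of ACTC1, EHF and CD44 in the score-high cells (red) and the other CAL51 cells (grey), with 95% Poisson intervals of the summed counts. ENC1 is at the top with 98.6 against 15.1 CPM and CD44 at the bottom with 3.14 against 67.2 CPM.

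CD44 (ENSG00000026508; chromosome 11, 35138870 to 35232402), the hyaluronan receptor often used as a surface marker in breast cancer, was singled out once its values were known. It had 7 UMIs in 5 score-high cells (3.14 CPM, interval 1.26 to 6.46) and 870 UMIs in 262 other cells (67.2 CPM, interval 62.8 to 71.8), 21.4-fold lower (interval 10.3 to 53.4). Thinned to 5000 UMIs it was seen in 1.86% of score-high cells (interval 0.386 to 5.35) and 16.2% of others (interval 13.8 to 18.7). Most other cells also lacked a UMI, so the groups overlapped at 0.

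EHF (chromosome 11, 34621093 to 34661057), an epithelial ETS factor that lies near CD44, was picked out in the same way. It likewise had 7 UMIs in score-high cells (3.14 CPM) and 439 in the others (33.9 CPM), 10.8-fold lower (interval 5.20 to 27.0). EHF reached the level for comparison through the other cells alone. Of the genes between them, APIP differed by -0.57 on the log2 scale and PDHX by -0.29. LMO2 (chromosome 11, 33858576 to 33892289), a transcriptional cofactor on the other side of EHF, was below the level for comparison and was noticed from its values. It had 51 UMIs in 28 score-high cells and 14 UMIs in 11 others, 21.1-fold higher (interval 11.5 to 41.4). The genes of this stretch thus differed in both directions, and CAPRIN1 and TRIM44 within it differed by 0.14 and 0.03.

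The lists below were chosen with earlier results of these data known, and each count is to be read against the 2.1% and 2.32% of all compared genes. Some list members that missed the level for comparison are given too, but others that also differed are not, so the counts cover compared genes only. Of 18 compared genes that process collagen, 4 were at least 1.5-fold higher and 0 lower, with a median of 0.24. Those past the fold were SPARC and PCOLCE, above, the prolyl hydroxylase P3H1 (85.1 CPM against 54.4 CPM) and the collagen chaperone SERPINH1 (244 CPM against 159 CPM). PPIB and P4HB, which fold and hydroxylate procollagen, had 1363 CPM against 1152 CPM and 490 CPM against 416 CPM. The list's summed UMIs came to 3303 CPM against 2633 CPM.

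The fibrillar collagens outside the score were low. COL1A2, the single one compared, had 30.02 CPM against 55.2 CPM, a log2 difference of -0.78. COL1A1 had 0 and 11 UMIs and COL11A1 1 and 1. COL5A2 lies 19.15 kb from COL3A1, was too low to be compared and was singled out once its values were known. It had 67 UMIs (30.02 CPM) and 164 UMIs (12.7 CPM), a ratio of 2.37 (interval 1.76 to 3.17). Of 4 other collagens compared, COL12A1, which binds fibrils, was past the fold with 78.4 CPM against 42.9 CPM. COL26A1, just below the level for comparison, had 47.1 CPM against 21.0 CPM, while COL4A1 of basement membranes had 145 CPM against 181 CPM.

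Other genes of cartilage were at low counts. SOX9, the main factor that drives COL2A1 in cartilage, had 0 UMIs in the score-high cells, which by a limit of 3 counts allows a share of up to 1.86% of cells with a UMI, and 3 UMIs in the others. ACAN, the core protein of aggrecan, had 2 and 3 UMIs. Of 3 cartilage genes compared, SOX5 differed by -0.06 and SOX6 by 0.38, and MATN2, which reached the level through the other cells, had 16.1 CPM against 27.4 CPM. HAPLN1, which links hyaluronan and aggrecan, did not reach it and was higher in the score-high cells. It had 32 UMIs there (14.3 CPM) and 25 in the others (1.93 CPM), a ratio of 7.43 (interval 4.27 to 13.1), with 46.9% of the first sum in 1 cell. CILP, of the same list and also below the level, went the other way, with 0 UMIs in the score-high cells and 39 in the others (3.01 CPM).

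Fibroblast and mesenchymal genes were mixed. Of 5 fibroblast genes compared, TAGLN and FBLN1 (99.0 CPM against 54.1 CPM) were past the fold upward and MFAP5 downward, and VCAN, a large matrix proteoglycan, had 1335 CPM against 898 CPM. FBN1, fibrillin of the microfibrils, missed the level for comparison with 37.2 CPM against 21.5 CPM. The defining fibroblast markers DCN, FAP and PDGFRA had 1, 0 and 4 UMIs in the score-high cells, but others were higher there at low levels. PDGFRB, a growth factor receptor, had 20 UMIs (8.96 CPM) and 18 in the other cells (1.39 CPM), a ratio of 6.45 (interval 3.24 to 12.9). FN1, fibronectin, had 21.1 CPM against 3.63 CPM, and 1 cell held 25.5% of its UMIs in the score-high cells. POSTN, a matrix protein, had 17.5 CPM against 1.24 CPM, with 56.4% in 1 cell. The part of cells of another type in these values was not tested.

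Of 4 mesenchymal regulators compared, FOXC1 (234 CPM against 107 CPM, 2.18-fold) and SOX4 (517 CPM against 298 CPM) were higher, and MSX1 had 662 CPM against 790 CPM. Of 13 mesenchymal effector genes, SPARC, TIMP1 (102 CPM against 49.1 CPM) and CCN2 (340 CPM against 216 CPM) were higher and S100A6 lower (679 CPM against 1104 CPM). Vimentin (VIM) had 275 CPM against 340 CPM and N-cadherin (CDH2) 78.4 CPM against 88.2 CPM, both within the fold.

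Epithelial genes split. Of 8 compared, 4 were lower, namely EPCAM, CD24 (123 CPM against 246 CPM), KRT19 (6.72 CPM against 35.1 CPM, 5.23-fold lower, interval 3.14 to 9.42) and CLDN3 (14.3 CPM against 28.0 CPM). KRT19 and CLDN3 reached the level for comparison through the other cells alone. The desmosome genes DSP (408 CPM against 229 CPM, 1.78-fold, interval 1.65 to 1.92) and JUP (48.8 CPM against 27.6 CPM) were higher. KRT8 and KRT18, keratins of simple epithelia, differed by 0.13 and 0.12. The list's median was -0.33, and 0.12 over the 6 genes with at least 25 CPM as the mean of both groups. E-cadherin (CDH1) had 0 and 6 UMIs in the score-high and other cells.

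Defining neuroendocrine genes were at or near 0. CHGA had 1 UMI and SYP 3 in the score-high cells, and the neurotensin receptor gene NTSR1 had 0 UMIs in all 1071 cells. SORT1, a sorting receptor that binds neurotensin, had 52.4 CPM against 46.6 CPM, and the convertase PCSK1 had 0 UMIs in both groups. Of the 2 genes of this list compared, 0 were past the fold. Endothelial and leukocyte genes had 1 and 2 UMIs in all in the score-high cells, with 4 genes of each list at 0.

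Among genes of the secretory load, 0 of 18 unfolded protein response genes were past the fold, with a median of 0.08 and summed UMIs of 12435 CPM against 10957 CPM. HSPA5, the main chaperone of the endoplasmic reticulum, had 1422 CPM against 1363 CPM. Of 43 S phase genes 0 were higher and 1 lower, and of 52 genes of G2 and M phase 0 passed the fold. Phases called after thinning to 5000 UMIs were G1 in 9.32% of score-high cells (interval 5.31 to 14.9), S in 34.2% and G2 or M in 56.5%, against 7.69%, 35.1% and 57.3% of the others. Each of these intervals overlapped that of the other group. Interferon genes had 1 of 5 past the fold, ISG15, of which 1 score-high cell held 46.4% of the UMIs. Its direction turned when cells were weighted equally (-0.10).

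In the remaining lists few compared genes passed the fold. Of 7 genes of the TGF-beta and BMP response, 13 of cholesterol synthesis, 10 of stress and early response and 7 G1 cyclins and inhibitors, 0 did, with medians of 0.14, 0.12, 0.04 and -0.15. In the first of these lists LTBP1, which binds latent TGF-beta, and BAMBI, a decoy receptor, missed the level for comparison but were higher in the score-high cells. LTBP1 had 46.2 CPM against 11.2 CPM (4.12-fold, interval 3.17 to 5.34) and BAMBI 39.9 CPM against 12.2 CPM (3.27-fold, interval 2.49 to 4.27). Of 2 bone genes compared, SPP1, a secreted bone and matrix protein, was higher (117 CPM against 48.1 CPM, with 1 score-high cell holding 21.9%) and DLX5, a homeobox factor, lower (46.6 CPM against 85.9 CPM). In G1 cells alone SPP1 differed by -0.88. Of 2 WNT response genes compared, LGR4 had 76.6 CPM against 57.0 CPM, within the fold. MYC, which reached the level through the other cells, had 12.5 CPM against 29.1 CPM. The summed UMIs of the WNT list came to 155 CPM against 123 CPM. Of 2 pluripotency genes 0 passed the fold, and no hedgehog gene was high enough to compare.

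**Figure D3:**
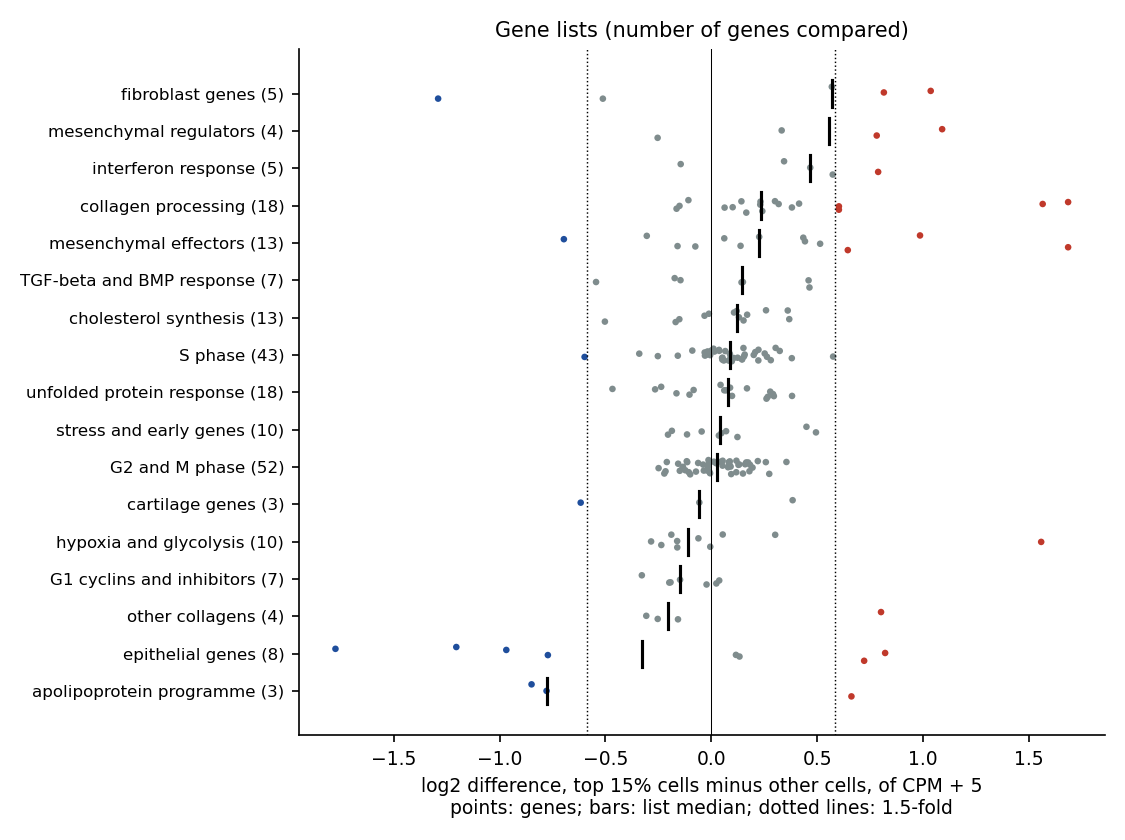
Log2 difference of CPM + 5, score-high minus other cells, for each compared gene (points) of the lists with at least 3 compared genes, the number of which is in brackets. Black bars are list medians and dotted lines mark 1.5-fold. The cell cycle lists lie close to 0, the apolipoprotein and epithelial lists hold genes on both sides, and SPARC and PCOLCE stand out to the right among the collagen processing genes.

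Cells below the cut showed the same genes in part. The 251 other cells with a score above 0 were split by score into 3 parts of 84, 84 and 83 cells, low, middle and high. ENC1 had 7.26 CPM in the 659 cells at score 0, then 16.7, 52.0 and 37.3 CPM in these parts, and 98.6 CPM in the score-high cells. SPARC had 20.9, 38.9, 45.0, 75.4 and 111 CPM over the same 5 sets, and GPC3 446, 586, 862, 989 and 1288 CPM. Thus SPARC and GPC3 were higher in each set than in the one before, while ENC1 was not.

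Lower genes ran the other way along the score. S100A10 had 365, 280, 255, 205 and 91.4 CPM over the 5 sets and CA2 441, 376, 286, 181 and 126 CPM. EPCAM had 329, 231, 305, 276 and 129 CPM, without an order among the cells below the cut. CD44 had 73.1, 81.1, 28.0, 28.6 and 3.14 CPM. The low part was deeper than the rest, with a median of 21376 UMIs against 9266 to 10065 UMIs in the middle, high and score-high sets, since few score UMIs make a low share in a deep cell.

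**Figure D4:**
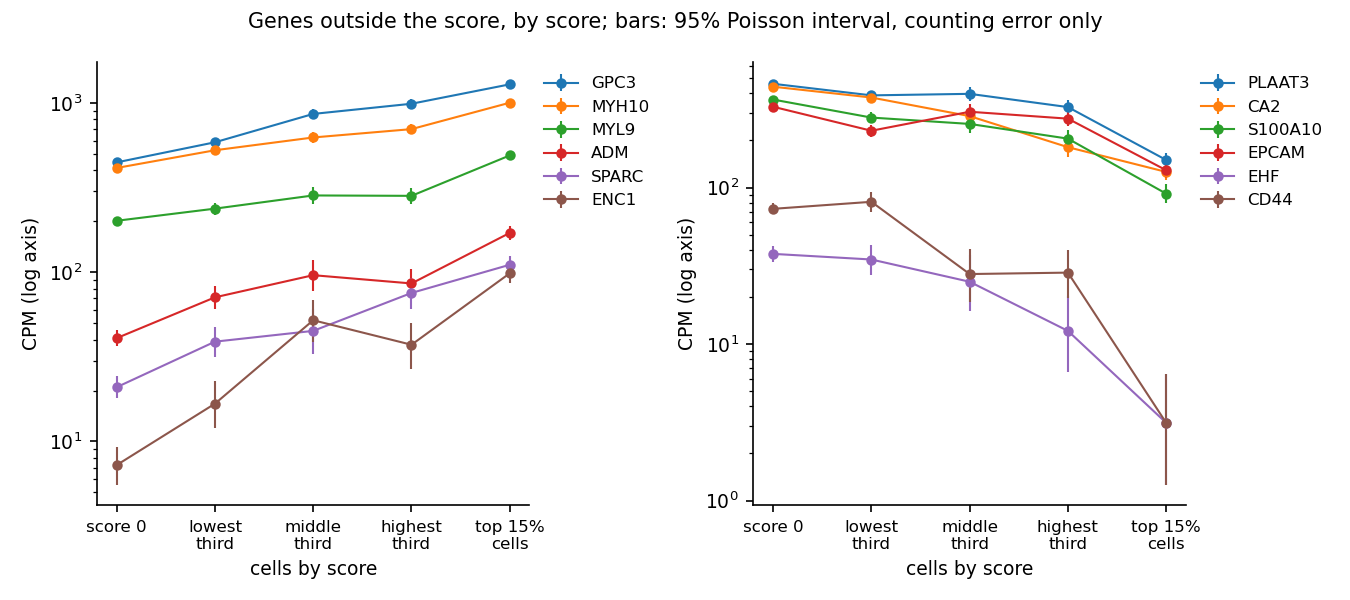
CPM (log axis) of 12 genes outside the score in 5 sets of CAL51 cells by score, from the 659 cells without a score UMI to the 161 score-high cells, with 95% Poisson intervals. GPC3 goes from 446 to 1288 CPM and S100A10 from 365 to 91.4 CPM, while CD44 is highest in the low part (81.1 CPM).

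Clustering without the score genes and without genes of the cell cycle, mitochondrial genome and ribosome placed 152 of the 161 score-high cells (94.4%, interval 89.7 to 97.4) in 1 cluster of 377 cells. That cluster, left unnamed, also held 225 of the 910 others (24.7%, interval 22.0 to 27.7). Among the other cells it held 15.5% of those at score 0 and 33.3%, 47.6% and 66.3% of the low, middle and high parts. With only the score genes left out, and all of those other genes kept in, 124 score-high cells (77.0%) and 257 others (28.2%) fell in 1 cluster.

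Within the 377 cells, the score-high cells were compared again with the 225 others. There, 63 genes (1.1%) were at least 1.5-fold higher and 40 genes (0.699%) lower. Of the 120 and 133 genes named above, 45 and 26 were still past the fold, and 120 and 126 kept their direction. The 377 cells are among those that gave these genes, so the directions kept are no independent support. ENC1 had 101 CPM against 35.4 CPM (2.86-fold, interval 2.26 to 3.64) and SPARC 115 CPM against 46.4 CPM. Other named genes lay within the fold there, among them FOXC1 (234 CPM against 199 CPM) and TCEAL7 (106 CPM against 82.5 CPM). ANXA4 was near its cluster mates, at 121 CPM against 134 CPM (1.10-fold lower, interval 0.942 to 1.30). For CD44 the values were 7 and 22 UMIs, with an interval for the lower fold of 0.928 to 6.23, so a difference was not detectable at this depth.

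Score-high cells led by COL2A1 (63 cells) differed from those led by NTS (79 cells). Of the 5725 genes, 158 (2.76%) were at least 1.5-fold higher and 233 (4.07%) lower in the COL2A1-led cells. These sets hold fewer cells than those above, so their counts of genes are not set against the earlier ones. Both kinds were near each other in GPC3 (1331 and 1176 CPM), MYL9 (518 and 481 CPM), S100A10 (96.7 and 92.4 CPM) and CA2 (133 and 136 CPM). BEX1 was at 203 CPM in COL2A1-led and 71.3 CPM in NTS-led cells, and ENC1 at 134 and 73.9 CPM.

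Some genes that differed between the 2 kinds were singled out once their values were known. SAT1, which acetylates polyamines, had 420 CPM in COL2A1-led and 911 CPM in NTS-led cells (2.17-fold, interval 1.93 to 2.45). NQO1, a quinone reductase, had 275 and 581 CPM. CTSV, a lysosomal protease, had 299 and 119 CPM, and GOLIM4, a Golgi membrane protein, 1030 and 521 CPM. APOE, singled out once its values were known, had 328 CPM in COL2A1-led cells (interval 291 to 367) and 110 CPM in NTS-led cells (interval 91.6 to 131), with 345 CPM in all cells that were not score-high. CD44 had 0 UMIs in the COL2A1-led cells and 7 in the NTS-led ones. These sets held 910130 and 1137126 UMIs, and no difference is read from so few CD44 counts.

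The 23 score-high cells with COL3A1 had higher levels of several of these genes. MYL9 was at 747 CPM in them, GPC3 at 1867 CPM, ACTC1 at 273 CPM and COL12A1 at 123 CPM, against 490, 1288, 124 and 78.4 CPM in all score-high cells. EPCAM was at 50.2 CPM (interval 29.7 to 79.3) and CD44 at 0 UMIs. These 23 cells had a median of 12588 UMIs, against 10065 in all score-high cells, and the part of depth in these values was not tested.

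Cells chosen in the same way for other genes were set beside the score-high cells, which are 15.03% of all analysed cells. Of the 161 cells highest in APOE and APOC1, 9 were score-high (5.59%, the same share of either group). Of the 161 highest in PTGDS, ADAMTS8 and COL1A2, 12 were (7.45%). Over all score-high cells APOC1 had 236 CPM against 429 CPM and APOE 199 CPM against 345 CPM, while APOA1 had 55.6 CPM against 33.3 CPM. PTGDS, singled out once its values were known, had 4 UMIs in the score-high cells and 244 in the others.

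Genes of chromosome 20 were higher together in the score-high cells. The median log2 difference of its 144 compared genes was 0.19, and 119 of them (82.6%) were above 0, against 54.1% of all compared genes. All 4 windows of 20 Mb along the chromosome had medians between 0.17 and 0.23. For the 102 compared genes of chromosome 18 the median was -0.12, with 28 above 0, and its windows ran from -0.22 to -0.08. On the other chromosomes medians lay between -0.02 and 0.07. MYL9 and DSTN, above, lie on chromosome 20.

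Cells differed in the share of their UMIs on chromosome 20. Counting only compared genes that had not passed the fold, chromosome 20 took a median of 2.06% of a score-high cell's UMIs and 1.86% of another cell's. A share at least 25% above the median of all cells, a level set after the values were seen, was reached by 48 of 161 score-high cells (29.8%, interval 22.9 to 37.5) and 60 of 910 others (6.59%, interval 5.07 to 8.41). These 108 cells were 44.4% score-high. Of the COL2A1-led cells 28 of 63 (44.4%) were among them, and of the NTS-led cells 12 of 79 (15.2%). In the cluster that held most score-high cells, 32 of the 225 others (14.2%, interval 9.94 to 19.5) were among them. So were 20 of the 161 cells highest in APOE and APOC1 (12.4%, interval 7.76 to 18.5). Of the 161 highest in PTGDS, ADAMTS8 and COL1A2, 2 were (1.24%, interval 0.151 to 4.42).

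The share of UMIs on chromosome 18 was more than 5% below its median, a level also set afterwards, in 98 score-high cells (60.9%, interval 52.9 to 68.5) and 377 others (41.4%, interval 38.2 to 44.7). It was as low in 138 of the 161 cells highest in PTGDS, ADAMTS8 and COL1A2 (85.7%, interval 79.3 to 90.7) and in 52 of the 161 highest in APOE and APOC1 (32.3%). Of the 108 cells high in chromosome 20, 88 were low in chromosome 18. The score-high cells among them had 708 CPM of MYL9, 142 CPM of ENC1, 56.0 CPM of EPCAM and 0 CD44 UMIs. Score-high cells outside them had 383, 77.4 and 165 CPM and 7 UMIs. The 60 other cells high in chromosome 20 had 385 CPM of MYL9, 64.6 CPM of ENC1, 210 CPM of EPCAM and 15 CD44 UMIs. The other cells outside had 212, 12.2 and 309.6 CPM and 855 UMIs. These sets differ in size. In the same order, CD44 was at 0 CPM (interval 0 to 5.04), 4.67 CPM (interval 1.88 to 9.62), 20.6 CPM and 69.9 CPM. The CD44 intervals of the score-high sets overlapped. SPARC was at 176 CPM in the score-high and 201 CPM in the other cells high in chromosome 20, and at 78.7 and 20.9 CPM outside them. MYL9, ENC1, EPCAM and SPARC thus differed with the chromosome 20 share in both groups. Without the 108 cells, 107 of the 120 higher and 104 of the 133 lower genes were still past the fold, and ENC1 differed by 2.26 on the log2 scale. DNA was not measured, and the part of chromosome number in these values was not tested.

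**Figure D5:**
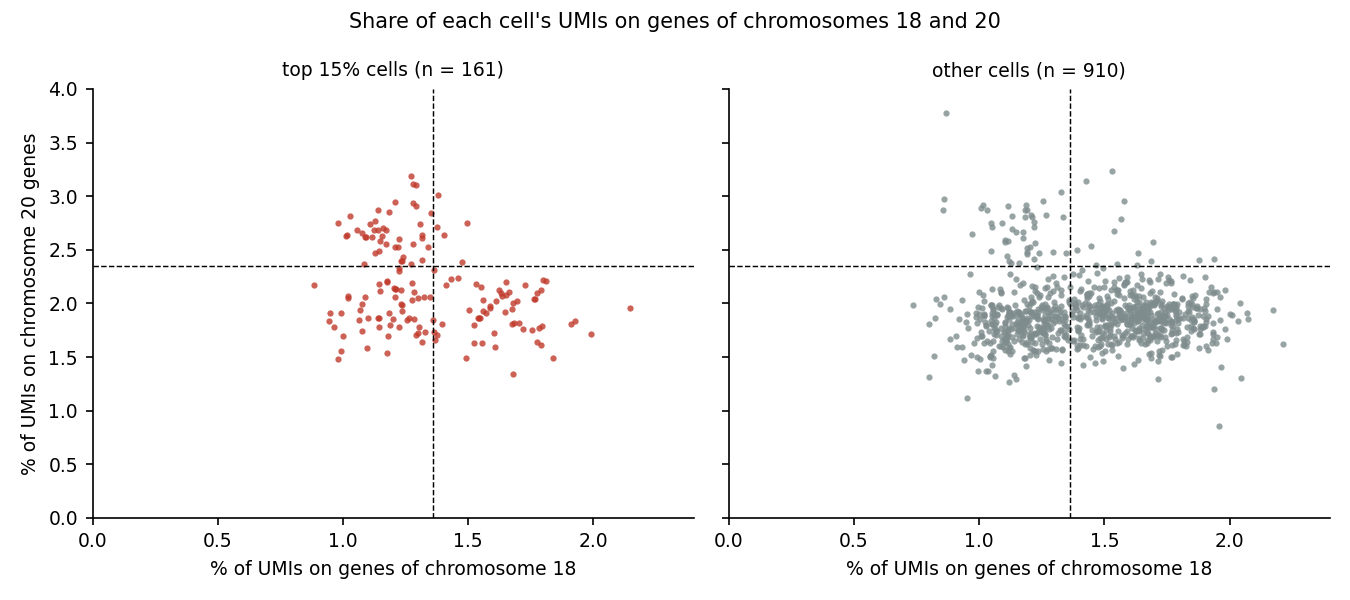
Percent of each cell's UMIs on compared genes of chromosome 20 (vertical) and chromosome 18 (horizontal) that did not pass 1.5-fold, for score-high cells (left) and other CAL51 cells (right), with dashed lines 25% above and 5% below the medians of all cells. Cells above the horizontal line are 29.8% of the score-high cells and 6.59% of the others, and most of them lie left of the vertical line.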

How the data were processed

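The values deposited by the authors are whole UMI counts of 30796 genes and 1683 barcodes, with no normalisation. STARsolo is named in the submitters' processing notes. Not given in the sources used here are its version, the genome build, the annotation, the choice of barcodes and the use of strand, so counts of overlapping genes and close paralogs are uncertain. Barcode names start with the line, which assigned each to its library. Positions of 29416 identifiers came from GENCODE release 29 (GRCh38). Where identifiers shared a symbol, that with the most UMIs kept it.

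The score-high cells and the 27 gene lists (519 genes, of which 36 were not analysed here) were chosen with earlier results of these data known. Counts were summed per group and scaled to CPM without the 3 score genes, and 5725 genes with at least 25 CPM were compared as log2(CPM + 5). Intervals are exact and at 95%, conditional on both groups' total for ratios, Poisson for sums and Clopper-Pearson for shares, and cover counting error only. The named genes were the 12 highest and 12 lowest differences among symbols with 40 CPM or more in the higher group, no cell holding over 10% of either sum and 1 sign in all 17 planned settings that kept the same cells, without score, mitochondrial, ribosomal protein, dotted and antisense symbols. Of these, 1 is not reported here. Added to these were the highest and lowest compared member of each list, and up to 3 more by level for collagen, cartilage and neuroendocrine lists. A further 14 genes, and other genes named as list members, were picked out after their values were seen. The bins of the score were changed once 659 cells were found at 0. Clusters came from scanpy 1.11.5 (2000 variable genes, 30 components, 15 neighbours) and leidenalg 0.10.2 at resolution 0.5. Python 3.11.15, numpy 2.4.6, scipy 1.17.1 and pandas 2.3.3 were used, and the comparison was checked on simulated counts. In all, 25 planned and 6 added settings were tried.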

Additional observations from a re-analysis of the deposited data

How the results depend on the processing

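The counts of 120 genes higher and 133 lower moved under several settings, and the cause was not tested. With every gene of at least 20 UMIs they were 421 and 297, and with genes of at least 100 CPM 34 and 48. These settings compared other numbers of genes than 5725, so their counts are not shares of the same set. With only cells under 10000 UMIs the counts were 254 and 274, and with only S phase cells 193 and 276. With only G1 cells, of which 15 were score-high, they were 867 and 936. Within the cluster that holds most score-high cells, chosen after seeing the data, they were 63 and 40. A pseudocount of 20 CPM left 79 lower, and COL2A1-led cells alone, also chosen after seeing the data, gave 203 lower. The share of score-high cells in their cluster was 77.0%, and 100% at resolution 0.2 (1 cluster), 44.1% at 1 and 94.4% with genes of the cell cycle, mitochondrial genome and ribosome left out. The median of 2416 detected genes was 745 at 1000 UMIs and 3682 without thinning.

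A score from COL3A1 alone, which 30 cells held, filled the rest of its top 15% with the deepest cells that lacked COL3A1. That group held 5466176 UMIs, against 2233200 in the score-high cells, and the part of depth was not tested. This score left 7 genes higher and 2 lower. It turned the log2 difference of PCOLCE (-0.21), GPC3 (-0.00464), SERPINH1 (-0.0617), FOXC1 (-0.0409), DUSP6 (-0.0155), COL5A2 (-0.23), HAPLN1 (-0.47), CTH (0.0202), DAB1 (0.10), ANXA4 (0.26), MFAP5 (0.17), LMNA (0.22), PPFIBP1 (0.0199), MATN2 (0.34), DLX5 (0.0689), KRT19 (0.0551), MYC (0.17), APOC1 (0.19), CD44 (0.94), EHF (0.18), APOE (0.15) and the apolipoprotein median (0.19). Within the cluster MATN2 turned to 0.0833, and APOE and the apolipoprotein median to 0.0684. In G1 cells SPP1 turned to -0.88. ISG15 turned to -0.10 with cells weighted equally, -0.657 under 10000 UMIs, -0.0466 without the deepest 5% of cells, -0.77 in G1 and -0.35 in COL2A1-led cells. Under the settings run, no other named gene or list median past 1.5-fold turned. No paired analysis was possible because each line is 1 library.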
